A study of Mus musculus with 16 samples.

Results

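The genes described here are 9 genes of iron uptake, storage, export and sensing, out of 19505 named genes on the array: Tfrc, Steap3, Slc11a2, Fth1, Ncoa4, Slc40a1, Aco1, Ireb2 and Fbxl5. They were taken by their gene symbol, and each of the 9 had 1 probe set, so no choice between probe sets was needed. The cells were BU.MPT, a mouse proximal tubular cell line, grown at 39 °C without interferon gamma. Arrays fell into 4 groups of 4. H/R+B12 cells had 3 h of hypoxia and 1 h of reperfusion with cyanocobalamin (vitamin B12) at 0.3 µM. H/R cells had the same hypoxia and reperfusion without it. Control+B12 cells were kept in normal culture with the same dose, and control cells in normal culture alone. Hypoxia was about 1% oxygen in medium without glucose or serum, and reperfusion restored 21% oxygen, 4.5 g/L glucose and 10% serum, so oxygen, glucose and serum cannot be told apart in these groups. The study asked how the vitamin affects the gene expression of tubular cells under this stress. Some free-text descriptions of B12 samples count the vitamin's number upward with the replicate, and the titles, which all read B12, were followed. Nothing in the labels says that replicates were separate cultures, so a p-value here speaks of the spread of these samples, which may be technical.

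Iron enters most cells bound to transferrin, which the transferrin receptor carries into endosomes. There the reductase STEAP3 reduces the iron and the transporter DMT1, the product of Slc11a2, moves it into the cytosol. Iron that is not used is stored in ferritin, whose heavy chain is encoded by Fth1, and NCOA4 brings ferritin to the lysosome when iron is to be released. Ferroportin, the product of Slc40a1, exports iron. The iron regulatory proteins IRP1 (Aco1) and IRP2 (Ireb2) bind iron-responsive elements in messenger RNAs when iron is low: they stabilise the Tfrc message and block translation of the Fth1 and Slc40a1 messages. FBXL5 is a ubiquitin ligase subunit that senses iron and oxygen and marks IRP2 for breakdown. Control of translation and protein stability is not read by arrays. The kidney's proximal tubule reclaims filtered iron, and iron released under oxygen stress is a known source of oxidative damage there.

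Within a group, 2 arrays had a Pearson r of 0.99 to 0.994 over the probe sets, and the number of arrays limits the precision of each value. Negative control features had medians of 5.72 to 6.23 on the log2 scale, and all 9 genes lay above the negative control median of the same array on 16 of 16 arrays. The signal of Steap3 was the closest to it, by 0.18 to 0.79 on the H/R arrays. Of 11 measured proximal tubule markers, 3 (Aqp1, Mme and Slc4a4) had a mean signal above 6.23, and the defining uptake receptors Lrp2 and Cubn did not. Of the markers of other cell types, 1 of 2 erythroid (Epor), 1 of 6 macrophage (Csf1r), 1 of 6 distal nephron (Scnn1a), 0 of 5 endothelial and 0 of 5 fibroblast genes did. The mean over the proximal tubule markers ran from 6.10 to 6.40 on the H/R arrays and from 5.93 to 6.28 on the control arrays. The mean over the macrophage markers ran from 3.87 to 4.05 on the H/R arrays and from 4.01 to 4.52 on the control arrays, below the level of negative control features. The mean over the distal nephron markers was lower on every H/R array (3.57 to 3.851) than on any control array (3.854 to 4.01), also below that level. In H/R against control 1 proximal tubule marker was called higher and 2 lower, and 1 macrophage and 1 distal nephron marker lower. The part of other cells in the results below was not tested.

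Among the 9 genes, Fbxl5 and Slc11a2 rose after H/R, by 2.02-fold and 1.76-fold, and Slc40a1 fell (log2 difference -0.44, adjusted p = 0.0296). The other 6 did not pass the test in H/R against control. With B12 in both arms Fbxl5 and Ncoa4 rose and 0 fell. Over all probe sets, 17.6% passed in H/R against control (8.11% higher, 9.54% lower) and 18.7% in H/R+B12 against control+B12 (9.04% higher, 9.61% lower). The balance of directions depended on scaling: 46.0% of the calls in H/R against control were higher as deposited, and 56.4% with arrays centred on their medians, and 48.5% and 60.1% in H/R+B12 against control+B12. The median log2 difference of the 9 genes was 0.00328 in H/R against control and 0.0676 in H/R+B12 against control+B12, beside -0.0223 and -0.0375 over all probe sets. The 2 H/R comparisons share no array. In them 7 of the 9 genes had the same sign, and so did 69% of all probe sets.

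Since 0 of 22206 probe sets passed in any B12 comparison, a further comparison, chosen after seeing this, averaged the H/R effect over both B12 states. It sets 8 H/R arrays against 8 control arrays. In it 3 genes rose (Fbxl5, Slc11a2, Ncoa4) and 2 fell (Slc40a1, Steap3), while 27.2% of all probe sets passed (12.5% higher, 14.7% lower). The 4 genes without a call were Tfrc, Fth1, Aco1 and Ireb2. The averaged log2 differences of Fth1, Ireb2 and Aco1 were -0.02, -0.04 and -0.11.

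**Figure D1:**
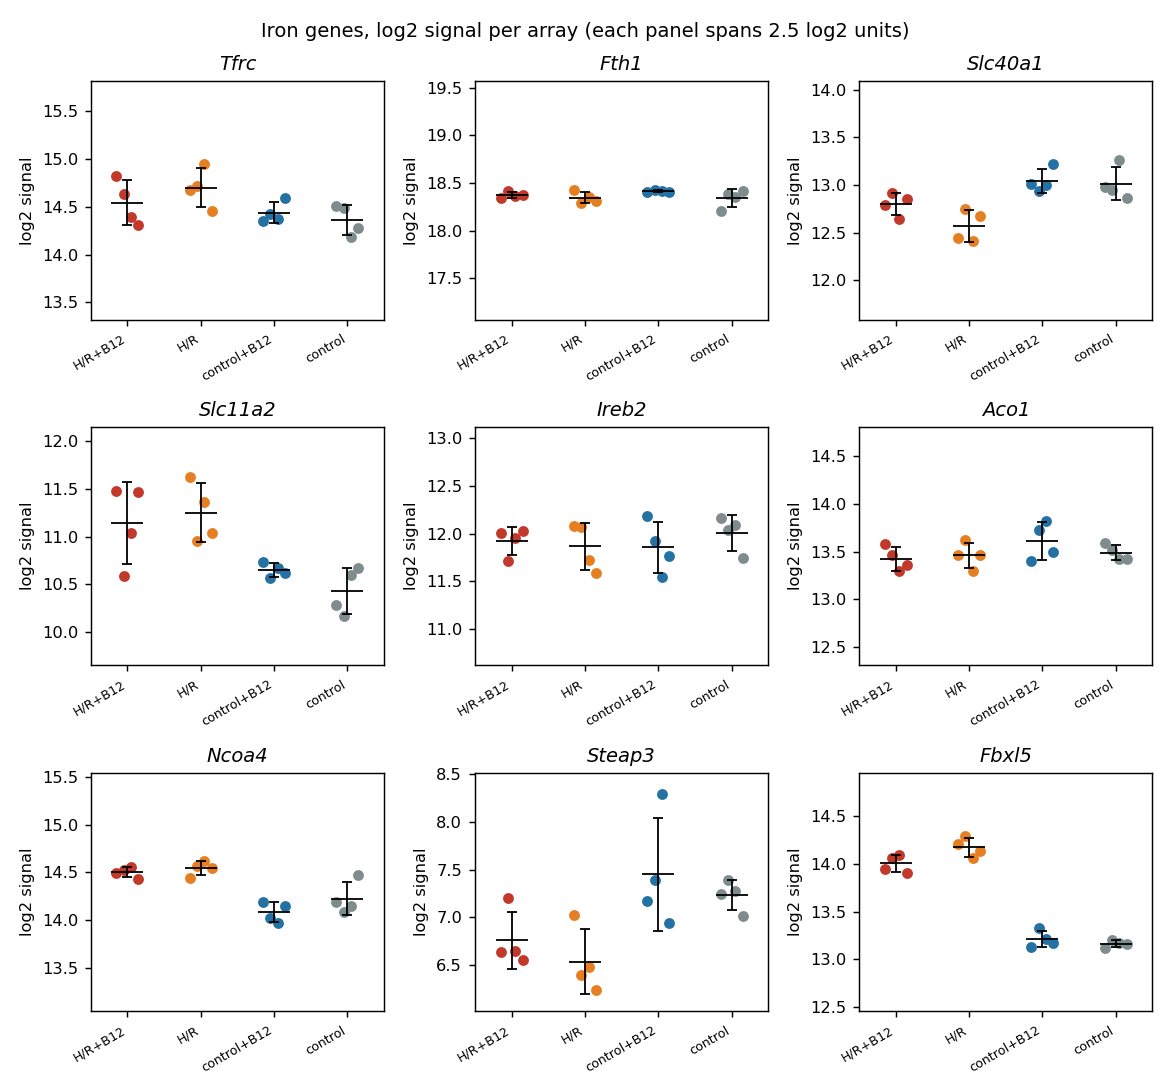
Log2 signal (vertical axis, 2.5 log2 units in every panel) of the 9 iron genes on each of the 16 arrays, by group, with the group mean and SD in black (n = 4). The Fbxl5 arrays of both H/R groups lie above those of both control groups, while the Fth1 points lie in a narrow band from 18.21 to 18.43.

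Among the sensing genes Fbxl5 rose, and neither iron regulatory protein message passed the test. Fbxl5, the iron-sensing ligase subunit, had log2 signals of 14.21, 14.30, 14.07 and 14.13 on the H/R arrays, against 13.12, 13.21, 13.17 and 13.16 on the control arrays. It had 13.95, 14.06, 14.10 and 13.91 on the H/R+B12 arrays, against 13.13, 13.33, 13.22 and 13.18 on the control+B12 arrays. All 8 H/R arrays, with and without B12, lay above all 8 control arrays. The rise was 1.01 ± 0.11 on the log2 scale without B12 (SE, n = 4 against 4, limma adjusted p = 9.71e-06) and 0.79 ± 0.11 with B12 (adjusted p = 8.95e-05). Its group means in falling order were 14.18 ± 0.10 in H/R, 14.01 ± 0.09 in H/R+B12, 13.21 ± 0.08 in control+B12 and 13.16 ± 0.04 in control (SD, n = 4). The neighbours H/R and H/R+B12 overlapped, as did control+B12 and control. Fbxl5 kept its call in each alternative setting run for these comparisons.

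IRP2, the protein that FBXL5 marks for breakdown, had no detectable change in its message. Ireb2 averaged 11.87 ± 0.25 in H/R and 12.01 ± 0.19 in control (SD, n = 4), a log2 difference of -0.14 with a 95% interval of -0.49 to 0.21. With B12 it averaged 11.92 ± 0.14 in H/R+B12 and 11.86 ± 0.27 in control+B12, a difference of 0.07 (interval -0.28 to 0.42). Its lowest and highest values over all 16 arrays were 11.55 and 12.19, and both came from control+B12 arrays. The IRP1 message, Aco1, averaged 13.46 ± 0.13 in H/R and 13.49 ± 0.08 in control, and 13.42 ± 0.12 in H/R+B12 against 13.61 ± 0.20 in control+B12 (SD, n = 4 each). Its log2 differences were -0.03 (interval -0.30 to 0.25) and -0.19 (interval -0.46 to 0.09). Groups overlapped for both genes. The intervals of the averaged effect were -0.28 to 0.21 for Ireb2 and -0.30 to 0.09 for Aco1. These speak of the average only, and the intervals within a B12 state, given above, reach further.

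Of the genes of uptake, Slc11a2 rose. This transporter, DMT1, moves ferrous iron out of the endosome. Its log2 signals were 11.63, 10.96, 11.37 and 11.04 on the H/R arrays, against 10.28, 10.17, 10.60 and 10.67 on the control arrays. Every H/R array lay above every control array. The difference was 0.82 ± 0.20 (SE, n = 4 against 4, limma adjusted p = 0.00913). With B12 the values were 11.48, 10.58, 11.04 and 11.47 in H/R+B12, against 10.74, 10.57, 10.67 and 10.62 in control+B12. There the second H/R+B12 array lay within the control+B12 range, and the difference, 0.49 ± 0.20, did not pass (adjusted p = 0.112). Without that array it was 0.68 (adjusted p = 0.0218), and it passed with an intensity trend and robust variances (adjusted p = 0.0437). Averaged over both states the rise was 0.66 ± 0.14 (adjusted p = 0.00211), and it passed in each of the alternatives run, with adjusted p from 8.12e-05 to 0.00563.

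Tfrc, the transferrin receptor, gave 14.67, 14.71, 14.95 and 14.46 in H/R, against 14.51, 14.49, 14.18 and 14.28 in control. The fourth H/R array lay within the control range. The difference was 0.33 ± 0.15 on the log2 scale (interval 0.02 to 0.65), with an unadjusted p of 0.0397 in limma and an adjusted p of 0.154. With B12 the values were 14.83, 14.64, 14.40 and 14.31 in H/R+B12, against 14.36, 14.43, 14.38 and 14.59 in control+B12, a difference of 0.10 (interval -0.21 to 0.42). With an intensity trend and robust variances Tfrc passed without B12 (adjusted p = 0.0292) and in the average (adjusted p = 0.034, log2 0.22). As deposited, the averaged difference had an adjusted p of 0.152, and with 1 array left out it had 0.0942 to 0.286.

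Steap3, the endosomal reductase, was the only one of the 9 near background. Its signals were 7.02, 6.39, 6.48 and 6.24 in H/R, against 7.25, 7.39, 7.28 and 7.02 in control. With B12 they were 6.64, 7.21, 6.65 and 6.55 in H/R+B12, against 7.17, 7.39, 8.30 and 6.94 in control+B12. The differences were -0.70 ± 0.25 without B12 (adjusted p = 0.07) and -0.69 ± 0.25 with B12 (adjusted p = 0.0709), and neither passed. Without control+B12 replicate 3, the array at 8.30, the difference with B12 was -0.41 (adjusted p = 0.222). The difference without B12 passed when only the 2 groups were fitted (adjusted p = 0.0317) and without H/R replicate 1 (-0.86, adjusted p = 0.0348), and with B12 it passed without control+B12 replicate 4 (adjusted p = 0.0314) or H/R+B12 replicate 2 (adjusted p = 0.0405). The average passed at -0.69 ± 0.18 (SE, 8 against 8 arrays, adjusted p = 0.00701), and groups overlapped in both comparisons.

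Of the genes of storage and release, Ncoa4 rose in the average and Fth1 did not pass. Fth1, the ferritin heavy chain, averaged 18.35 ± 0.06 in H/R and 18.34 ± 0.09 in control, and 18.37 ± 0.03 in H/R+B12 against 18.42 ± 0.01 in control+B12 (SD, n = 4 each). The log2 difference was 0.00 ± 0.11 without B12 (interval -0.22 to 0.23) and -0.04 ± 0.11 with B12 (interval -0.27 to 0.18). The groups overlapped in both comparisons, and with arrays centred on their medians or quantile normalized the sign of the difference with B12 turned (log2 0.04 and 0.02, neither past the threshold). Its mean ranked 8 of 22206 probe sets, and its spread between arrays of a group, SD 0.0576, was at the 0.0225 percentile of all probe sets. Of the 50 brightest probe sets 7 (14%) passed in H/R against control, beside 17.6% of all, with a largest absolute log2 difference of 0.95. Their median absolute log2 difference was 0.115, smaller than the 0.259 over all probe sets. RefSeq lists pseudogenes of Fth1 and of Ncoa4, and whether the probes also read those copies was not tested.

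Ncoa4, the receptor that brings ferritin to the lysosome, gave 14.44, 14.57, 14.62 and 14.55 in H/R, against 14.19, 14.09, 14.14 and 14.47 in control. The fourth control array lay above the lowest H/R array. The difference was 0.32 ± 0.12 (adjusted p = 0.0799), and without that control array it was 0.41 (adjusted p = 0.032). It also passed with centred arrays (0.40, adjusted p = 0.043), without the dimmest 25% of all probe sets (adjusted p = 0.0436) and with an intensity trend and robust variances (adjusted p = 0.0106). With B12 the values were 14.50, 14.53, 14.56 and 14.43 in H/R+B12, against 14.19, 14.02, 13.97 and 14.15 in control+B12, without overlap. That difference, 0.42 ± 0.12 (SE, n = 4 against 4), passed in limma (adjusted p = 0.021), but not when only the 2 groups were fitted (0.0569) or without control+B12 replicate 2 (0.0523), control+B12 replicate 3 (0.0611) or H/R+B12 replicate 3 (0.0549). Averaged, Ncoa4 rose by 0.37 ± 0.09 (adjusted p = 0.00296), with adjusted p between 2.93e-05 and 0.00768 in the alternatives.

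Slc40a1 encodes ferroportin, the exporter. It had 12.44, 12.75, 12.42 and 12.68 in H/R, against 12.98, 12.95, 13.26 and 12.86 in control. With B12 it had 12.79, 12.92, 12.64 and 12.86 in H/R+B12, against 13.01, 12.94, 13.00 and 13.22 in control+B12. Neither pair of groups overlapped, H/R being the lower one, by a narrow margin with B12 (12.92 against 12.94). The difference was -0.44 ± 0.13 without B12 (SE, limma adjusted p = 0.0296) and -0.24 ± 0.13 with B12 (adjusted p = 0.257). The call without B12 was lost with centred arrays (adjusted p = 0.0961), with only the 2 groups fitted (0.0871), and without control replicate 3 (0.102), H/R replicate 1 (0.0858) or H/R replicate 3 (0.0897). Averaged, Slc40a1 fell by 0.34 ± 0.09 on the log2 scale (adjusted p = 0.0113), and the call was lost with centred arrays (-0.26, adjusted p = 0.0691).

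**Figure D2:**
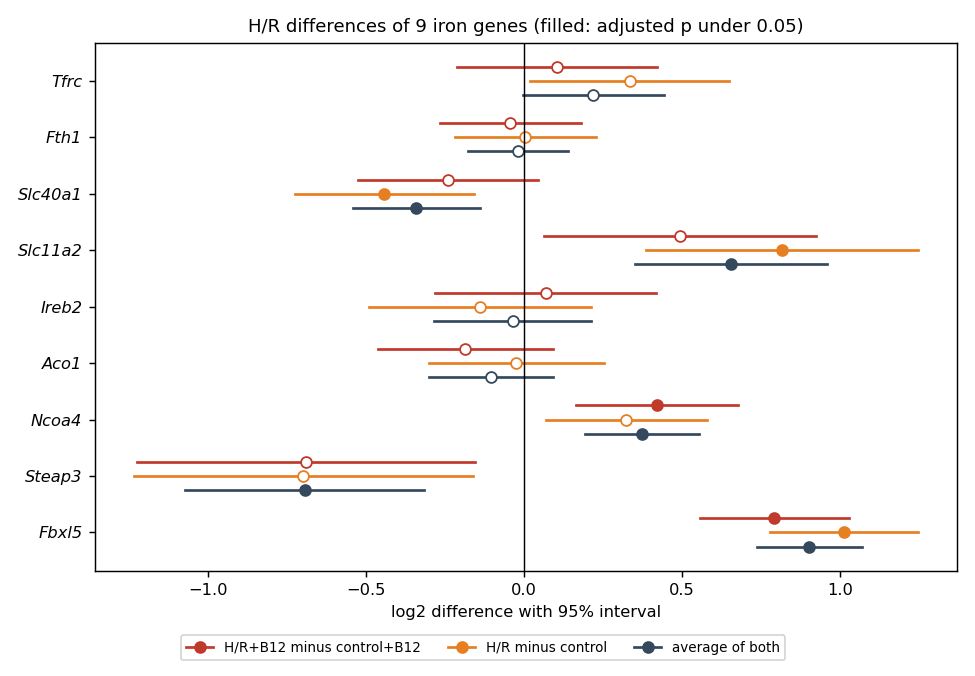
Log2 differences (horizontal axis) of the 9 genes with 95% intervals for H/R+B12 minus control+B12, H/R minus control and the average of both, with filled points for an adjusted p under 0.05. Fbxl5 is filled in all 3 comparisons, all intervals of Fth1, Aco1 and Ireb2 include 0, and Steap3 has the widest intervals.

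Adding B12 changed none of the 9 genes detectably. By limma 0 of 22206 probe sets (0%) passed in H/R+B12 against H/R, in control+B12 against control, in the B12 effect averaged over both oxygen conditions and in the interaction, which tests whether B12 changes the H/R response. The numbers with an unadjusted p under 0.05 were 1010, 1280, 1223 and 1071 probe sets in these 4 comparisons, and 0 of the 9 genes were among them in any. The averaged B12 effect was between -0.09 (Ncoa4, interval -0.27 to 0.09) and 0.22 (Steap3, interval -0.16 to 0.60). For Fth1 it was 0.05 (interval -0.11 to 0.21) and for Fbxl5 -0.06 (interval -0.23 to 0.11).

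The interaction terms were less precise. Fbxl5 rose by 0.22 less with B12 than without, a difference of -0.22 ± 0.16 (SE, interval -0.55 to 0.11, limma adjusted p = 0.987). Slc11a2 had -0.32 (interval -0.93 to 0.29), Tfrc -0.23 (interval -0.68 to 0.22) and Slc40a1 0.20 (interval -0.20 to 0.60). Ncoa4 passed the threshold only with B12 and Slc11a2 and Slc40a1 only without it, and none of these differences between B12 states passed its own test. The interval for Steap3, -0.75 to 0.77, leaves room for a change as large as its H/R difference. These intervals do not show that B12 leaves the iron genes unchanged.

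**Figure D3:**
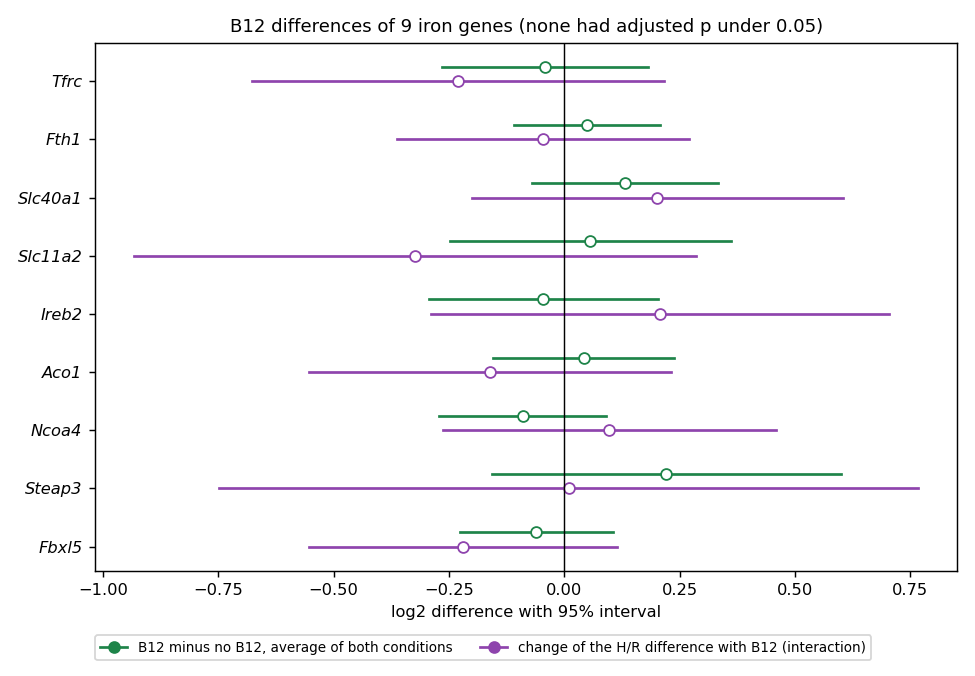
Log2 differences (horizontal axis) of the 9 genes for B12 minus no B12 averaged over both oxygen conditions, and for the change of the H/R difference with B12, each with its 95% interval. All 18 intervals include 0, and those of the interaction are wider.

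Over the promoter windows of RefSeq (GRCm38.p6, 250 bases before to 50 after each start site) 6 of the 9 genes had 13 windows. Slc40a1, Slc11a2 and Fbxl5 were not searched. The 13 windows were searched on both strands for ACGTG, a form of the core that hypoxia-inducible factors bind, which was held by 19.6% of all 32851 windows. Other forms of the core were not searched. In these 6 genes 4 of 13 windows held it, at 3 positions in Ncoa4 and Tfrc, shown here because Tfrc is a known hypoxia target in human cells and Ncoa4 rose. Both genes lie on the plus strand, and the capitals mark the match. Ncoa4 had a further start site, at 32165586, between those named below, and the later of its matches lies after that site.
Ncoa4 upstream start site, match on the opposite strand from 71 bases before the start, chr14:32159804-32159833: actgcatgcctcCACGTtgagctctaagaa
Ncoa4 downstream start site, match from 68 bases before the start, chr14:32165709-32165738: agggggagggagACGTGacgcgcgcaaggc
Tfrc, match from 2 bases before the upstream start and 228 before the downstream start, chr16:32608882-32608911: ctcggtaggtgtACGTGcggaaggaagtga
Windows of Steap3, Aco1, Ireb2 and Fth1 did not hold these letters. A match is a description of sequence and no evidence of binding.

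For each of the 3 genes called in H/R against control, the genes with the most similar values over the 16 arrays were listed as a description. All points share the same arrays and the H/R contrast. Fbxl5 was most like P4ha2, a collagen prolyl hydroxylase subunit (Pearson r = 0.981), Ptpn12, a tyrosine phosphatase (0.98), and Cdc42bpb, a kinase (0.979). Slc11a2 was most like Cdh11, a cadherin (0.917), Srp54c (0.908) and Fbxo28 (0.903). Slc40a1 was most like Cpne2 (0.884), the complex I subunit Ndufc2 (0.877) and Taf6 (0.868).

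Around these 9, a wider list of iron genes was measured. Of 64 such genes 11 rose and 8 fell in H/R against control, with a median log2 difference of -0.05, and 11 rose and 11 fell in H/R+B12 against control+B12, with a median of -0.05. Over all probe sets 17.6% passed in the first comparison (8.11% higher, 9.54% lower) and 18.7% in the second (9.04% higher, 9.61% lower). In the averaged H/R effect 12 of the 64 rose and 15 fell, beside 12.5% higher and 14.7% lower over all probe sets. Of the 19 called without B12, 16 were called the same way with B12, or 84.2%, where 75% of all called probe sets were. None passed in any B12 comparison. In 15 of the 64, the mean of every group lay at or below 6.23, the highest negative control median, so a call or its absence there carries little weight. These were all 5 hormone genes, among them Hamp, called lower with B12 at means of 3.04 in H/R+B12 and 3.73 in control+B12, and 5 of the 8 further uptake genes (Trf, Tfr2, Slc22a17, Lrp2 and Cubn). The other 3 uptake genes, the siderophore-binding Lcn2 and the metal importers Slc39a14 and Slc39a8, did not pass in either H/R comparison. Of the 3 further export genes 0 passed without B12. Heph was lower with B12 in both arms (-0.78, limma adjusted p = 0.0187), with overlapping groups. In the averaged H/R effect 1 of the 3 export genes and 1 of the 3 cytosolic iron-sulfur genes were lower.

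Genes tied to lipid peroxidation were among those called. Slc3a2 and Slc7a11, the subunits of the cystine importer that protects cells from iron-dependent lipid peroxidation, rose. Slc3a2 had 16.38 to 16.72 in H/R, against 14.97 to 15.29 in control, a log2 difference of 1.43 ± 0.13 (SE, n = 4 against 4). Slc7a11 rose by 2.05 ± 0.28, but its control signals of 5.22 to 6.21 lay around the negative control medians of those arrays (5.85 to 6.1), so the size of the rise is uncertain. The phospholipid enzyme Acsl4 rose by 0.68 ± 0.12 and Lpcat3 fell by 0.82 ± 0.12. Gpx4, which removes lipid peroxides, fell by 0.83 ± 0.17, so this class of 6 had 3 higher and 2 lower.

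Several messages of heme and mitochondrial iron handling passed in H/R against control. Hmox1, heme oxygenase, which frees iron from heme, rose by 1.35 ± 0.15, with 12.17 to 12.49 in H/R and 10.91 to 11.20 in control. Of the 13 heme genes 2 rose, Hmox1 and the synthesis enzyme Cpox (0.61), and 3 fell, the heme transporter Slc48a1 (-0.89) and the synthesis enzymes Fech (-0.67) and Urod (-1.13). With B12 in both arms Fech (-0.24, limma adjusted p = 0.307) and Urod (-0.44, adjusted p = 0.332) did not pass. Ppox (-0.57, adjusted p = 0.0196) and Hmox2 (-0.43, adjusted p = 0.0417) were called lower there, so the class again had 2 higher and 3 lower. In the averaged H/R effect the heme class had 2 higher and 6 lower, beside 12.5% higher and 14.7% lower of all probe sets. No heme gene passed in the interaction (Fech 0.42, adjusted p = 0.987). Both mitoferrins, which import iron into mitochondria, rose: Slc25a28 by 0.89 ± 0.14 and Slc25a37 by 1.09. In the same class of 9 the iron-sulfur cluster genes Iscu (-0.84) and Glrx5 (-0.86) fell. The iron chaperone Pcbp1, which loads ferritin, rose by 0.80 ± 0.14 and was the 1 gene of 4 in its storage class to pass.

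Relatives and partners of the 9 genes were among those called. Steap4, a ferrireductase related to Steap3, rose by 1.66 ± 0.23, with 10.52 to 10.71 in H/R and 8.56 to 9.21 in control, while Steap3 differed the other way. Steap4 was the 1 gene of 4 in the reduction class to pass in H/R against control, and Steap1 (0.23) and Steap2 (0.13) did not. With B12 in both arms Steap1 also passed (0.46, limma adjusted p = 0.0314), without overlap of the groups, so the class had 2 higher there. Cdc42bpa, whose message carries an iron-responsive element, rose by 1.31 ± 0.15 in H/R against control. Epas1, the other gene of that class, lay below the negative control level and did not pass (-0.52, limma adjusted p = 0.197). Of the partners of Fbxl5 in its ubiquitin ligase, Skp1 fell by 0.66 ± 0.12, with 14.82 to 15.04 in H/R and 15.51 to 15.73 in control. The scaffold Cul1 rose by 0.46 (limma adjusted p = 0.0378), with overlapping groups. With B12 it did not pass (0.39, adjusted p = 0.0763), though every H/R+B12 array lay above every control+B12 array. Rbx1 did not pass (-0.08, adjusted p = 0.881). The sensing class of 4 had 1 higher and 1 lower, and 0 higher and 2 lower with B12 in both arms, Herc2 among them (-0.70, adjusted p = 0.0119). Adjusted p-values of the 10 genes with the smallest p in this list ran from 1.84e-06 for Slc3a2 to 0.000907 for Acsl4.

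**Figure D4:**
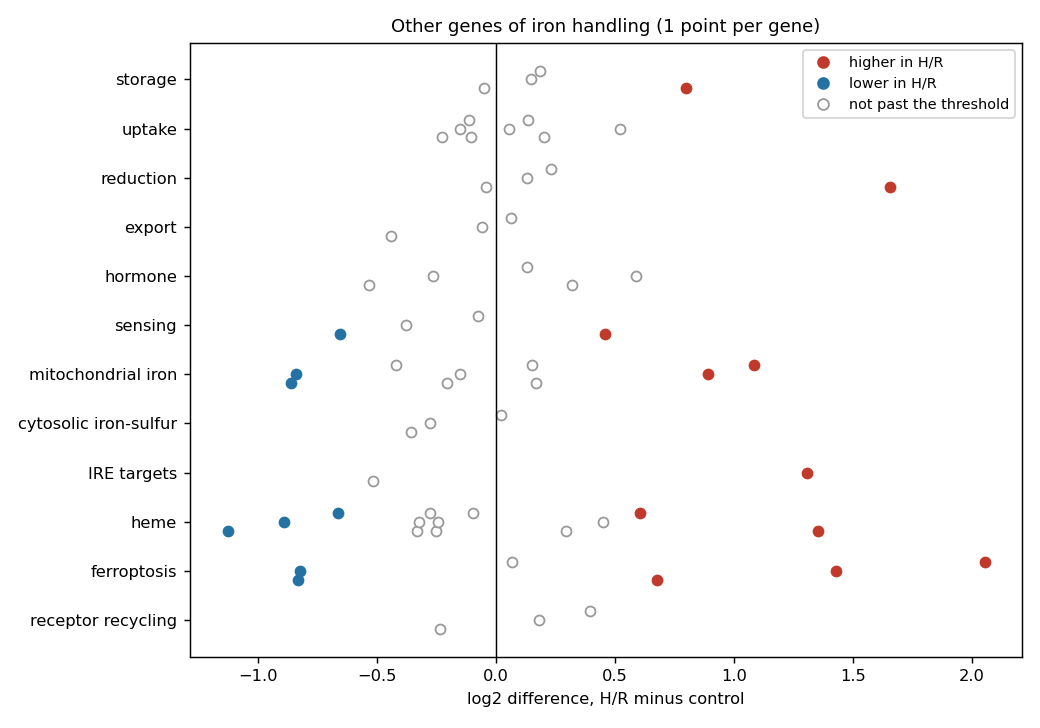
Log2 differences of H/R minus control (horizontal axis) for 64 other genes of iron handling, 1 point per gene, in 12 classes, with filled points for an adjusted p under 0.05. The uptake, export, hormone, cytosolic iron-sulfur and receptor recycling rows hold 0 filled points, and the ferroptosis row has 3 higher and 2 lower.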

How the data were processed

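Total RNA of 16 samples was hybridised to 1 Affymetrix array each. The deposited values are log2 signals of each probe set on each array, which the authors made by robust multi-array averaging (RMA) in Affymetrix Expression Console, with Transcriptome Analysis Console as a further tool, per the submitters' processing notes. Their versions, and the genome build, are not named in any source used. Control features (6640 of 28846) were left out, and 22206 probe sets were tested as deposited. Of these, 19572 carried 1 gene symbol on the platform, 0 several and 2634 none.

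All 16 arrays were fitted as 4 group means with limma 3.58.1 in R 4.3.3, two-sided, with Benjamini-Hochberg adjustment over the 22206 probe sets in each comparison and a threshold of 0.05. Errors of fold changes are standard errors (SE) of that fit, with 95% intervals. The script was tested on simulated data. The 9 genes, the comparison list and the wider list of 71 iron genes (64 measured) were chosen with earlier results of these data known. The H/R effect averaged over both B12 states was added after seeing the data. Named genes are the 9, the 10 of the wider list with the smallest p in H/R against control, and the 3 best-correlated genes of each of the 9 that passed there. Genes named beyond these, where a class count was small, were chosen after their values were seen. Alternatives were a replicate block, fits of 2 groups, array weights, an intensity trend with robust variances, quantile normalization, median centring, leaving out dim probe sets, 1 probe set per gene, and leaving out each array. Figures were drawn in matplotlib 3.10.9 under Python 3.11.15.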

Additional observations from a re-analysis of the deposited data

Results flagged for a closer look

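In 4 of 76 groups of 4 arrays, over the 9 genes and the 10 other iron genes named, 1 array lay far from the other 3, and chance alone gives about 1 in 20. Steap3 was highest on H/R+B12 replicate 2 (7.2065), where the nearest array had 6.6456. Slc7a11 was lowest on H/R replicate 2 (7.5167), where the nearest had 7.8755. Steap4 was lowest on control+B12 replicate 4 (7.9152), where the nearest had 9.0283. Acsl4 was lowest on H/R replicate 3 (14.2514), where the nearest had 14.4995.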

How the results depend on the processing

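Of 1747 values of single genes under alternative settings, 1690 kept their direction and their side of the threshold, 11 lost a call, 12 gained one and 34 changed sign, none of the last past the threshold in either setting. The replicate block left 1695 higher and 1978 lower probe sets in H/R against control and 1915 and 2017 in H/R+B12 against control+B12, and it ended the call of Slc40a1 (adjusted p = 0.0533). Deviations of same-numbered arrays correlated at -0.072 to 0.0786 (mean 0.0088, beside -0.00284 for other numbers), so the numbers were not taken as pairs. Of 16 arrays, 7 matched best with their own number, and how many would do so by chance was not computed. With an intensity trend and robust variances 5 of the 9 genes passed in H/R against control. In that setting 4517 of 22206 probe sets passed, beside 3919 without it. In H/R+B12 against control+B12, 1 of the 9 genes and 3411 of 22206 probe sets passed with only the 2 groups fitted. There the fits without 1 array gave 1 to 4 of the 9 genes and 3528 to 3662 probe sets. With all 16 arrays fitted 4142 probe sets passed in that comparison. Leaving out 1 array gave 0 to 1 probe sets in H/R+B12 against H/R and in the averaged B12 effect (1 without H/R replicate 1), and 0 to 1 in control+B12 against control (1 without control replicate 2). Centred arrays turned the sign of Aco1 in H/R against control (0.0469), of Fth1 and Ireb2 in the averaged H/R effect (0.0586 and 0.0425) and of Fth1 in H/R+B12 against control+B12 (0.0414). Quantile normalization turned Fth1 in H/R+B12 against control+B12 (0.0238) and in the averaged H/R effect (0.0358), and Steap3 in the interaction (-0.0359). Leaving out 1 array gave ranges that crossed 0 as follows. In H/R against control they were -0.0775 to 0.0297 for Aco1 and -0.0418 to 0.0286 for Fth1. In H/R+B12 against control+B12 Ireb2 ran from -0.0351 to 0.178, and in the averaged H/R effect from -0.0876 to 0.0191. In H/R+B12 against H/R the ranges were -0.0936 to 0.0136 for Aco1, -0.0342 to 0.129 for Ireb2 and -0.218 to 0.0805 for Slc11a2. In control+B12 against control they were -0.029 to 0.114 for Slc40a1 and -0.0659 to 0.386 for Steap3. In the averaged B12 effect they were -0.101 to 0.00577 for Ireb2, -0.000177 to 0.149 for Slc11a2 and -0.0893 to 0.000398 for Tfrc, and the interaction of Steap3 ran from -0.161 to 0.292. The causes were not tested. Signal near or below the negative control features limits Steap3, Slc7a11 and 15 of the 64 other iron genes, Hamp among them, and 4 arrays a group limit every value.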
